A study of Mus musculus with 6 samples.

Results

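The complement genes described here were 9 of the 24422 gene symbols counted in the series, listed by name as components, a regulator and receptors of the complement system. They were C1qa, C1qb, C1qc, C4b, C3, Cfb, Cfi, C3ar1 and C5ar1, and all 9 received an adjusted p. RNA was taken from whole kidneys of C57BL/6 mice at postnatal day 13, and poly-A libraries were sequenced and counted per gene. There were 3 Control kidneys, labelled wild type, and 3 TfR1 knockout kidneys with the genotype Tfr1f/f;SixCre, all from mice on an iron sufficient diet with 220 ppm iron. In the knockout, floxed alleles of the transferrin receptor gene (Tfrc, which encodes TfR1, the receptor that brings transferrin-bound iron into cells) were recombined by Six2Cre, a driver that acts in the progenitors of the nephron. Cells of other lineages in the kidney, among them macrophages, are not its target, and the study describes nephron cells that kept the receptor. The comparison addressed here is how transcripts of the complement system differed between kidneys with and without this deletion.

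Complement is a cascade of plasma and tissue proteins. C1q, built from the chains encoded by C1qa, C1qb and C1qc, recognizes antibodies and dying cells and starts the classical pathway, in which C4 and C2 form an enzyme that cleaves C3. Factor B (Cfb) forms the corresponding enzyme of the alternative pathway, factor I (Cfi) inactivates the products of C3 and C4, and the fragments C3a and C5a act through the receptors encoded by C3ar1 and C5ar1. The liver makes most plasma complement, while macrophages are the main source of C1q, and kidney tubule cells are known to make C3 and factor B.

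Total gene counts ran from 16591156 to 22898008 per library, and no pair of libraries agreed within counting noise. The targeted gene did not separate the groups: Tfrc had 5534, 6485 and 3667 normalized counts in Control replicates 1, 2 and 3 and 6976, 4045 and 5898 in the knockout replicates (log2 fold change 0.11 ± 0.29 SE, DESeq2 adjusted p 0.853). The count covers the whole gene and not the deleted part alone, so it does not check the labels. Normalized counts here are raw counts divided by DESeq2's size factors. Control replicate 3 stood apart from the other Control libraries. Its 10 kidney tubule and glomerulus markers summed to 97992 normalized counts against 193987 and 203927 in Control replicates 1 and 2, and its 20 macrophage markers to 6998 against 4663 and 4586. Results are therefore also given without it. The tissue label fit its markers, since transcripts of the tubule (Umod, Lrp2, Slc34a1, Aqp2) and the podocyte (Nphs1, Podxl) were counted in every library.

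Of the 9 genes, 5 rose in TfR1 knockout kidneys at an adjusted p under 0.05 (C1qa, C1qb, C1qc, C4b and C3), each by at least 2-fold. Cfb fell without reaching a 2-fold change, and Cfi, C3ar1 and C5ar1 did not pass. Over all 16509 genes tested by DESeq2's Wald test, 7.74% passed as higher and 7.18% as lower, and 4.41% and 4.46% passed as higher and lower by at least 2-fold. The median log2 fold change of the 9 genes was 1.46, beside 0.01 over all genes tested. With edgeR's quasi-likelihood test 3 of the 9 passed as higher (C1qa, C1qc and C3) and 0 as lower, where 3.22% of 15308 genes passed as higher and 2.8% as lower, and 2.48% and 2.31% also by at least 2-fold. These 3 genes were past 2-fold with edgeR too. At an unadjusted edgeR p under 0.05, 6 of the 9 genes were higher and 1 lower, Cfb (p 0.0195), beside 12.8% and 13% of the genes tested. All knockout libraries lay above all Control libraries for 5 of the 9 genes and below them for Cfb, and such a gap was present upward in 16.9% and downward in 16.9% of the genes tested. Leaving out 1 library at a time gave 4 to 7 higher genes with DESeq2, the 7 without Control replicate 3 and the 4 without Control replicate 2 or knockout replicate 1.

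**Figure D1:**
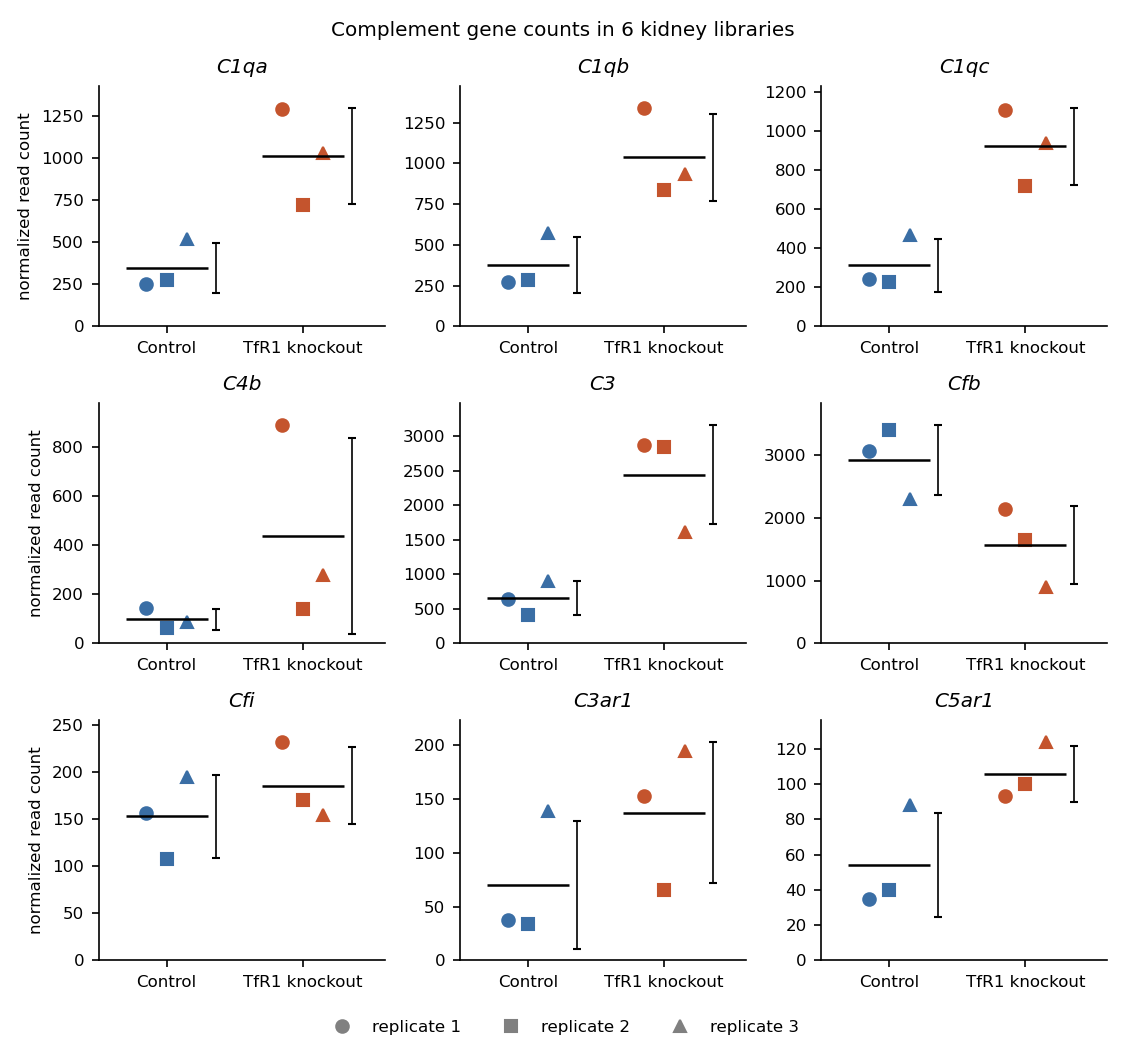
Normalized counts of the 9 complement genes in each library, 1 panel per gene with its own linear axis from 0. Points are libraries, bars are the means of 3 libraries per group, and the whiskers beside them span 1 SD either way; the C1q genes and C3 are higher in all 3 knockout libraries, Cfb is lower in all 3, and the high mean of C4b in the knockout group comes with 1 library at 889.

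Transcripts of the 3 chains of C1q, the recognition protein of the classical pathway, rose together and by nearly the same factor. C1qa (chr4:136451832-136454718, minus strand; all positions of genes are in mm9) had 252, 274 and 519 normalized counts in Control replicates 1 to 3 and 1293, 722 and 1030 in the knockout replicates. C1qb (chr4:136436044-136442102) had 271, 285 and 576 in Control and 1341, 839 and 934 in knockout kidneys. C1qc (chr4:136445719-136448980) had 243, 228 and 468 in Control and 1110, 718 and 940 in knockout kidneys. For each chain Control replicate 3 was the highest Control library, knockout replicate 1 the highest and knockout replicate 2 the lowest knockout library, and the groups did not overlap. The fold changes were 2.92 for C1qa (log2 1.54 ± 0.35 SE, DESeq2 adjusted p 0.000269), 2.75 for C1qb (log2 1.46 ± 0.35, adjusted p 0.000665) and 2.95 for C1qc (log2 1.56 ± 0.33, adjusted p 9.09e-05). All 3 chains passed in each of the 6 leave-one-out fits of DESeq2. Their edgeR adjusted p-values lay close to the threshold (0.0433, 0.0504 and 0.0359), and in edgeR fits without 1 library each chain passed in 1 of 6. Without Control replicate 3 the log2 fold changes were 1.94, 1.90 and 1.97. These are bulk samples, in which more cells of a type and more RNA per cell cannot be told apart.

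The 3 genes lie side by side within 18.7 kb of chromosome 4, on 1 strand. Per base of transcript the chains were present in similar amounts. The log2 ratio of C1qa to C1qb was -0.04 ± 0.05 in Control and 0.02 ± 0.18 in knockout kidneys (mean ± SD, n = 3 each, two-sided exact permutation p 0.7). The ratio of C1qa to C1qc was 0.37 ± 0.11 and 0.33 ± 0.11 on the same scale (exact permutation p 0.7), and that of C1qb to C1qc was 0.41 ± 0.09 and 0.31 ± 0.15 (exact permutation p 0.5). With 3 libraries against 3 this test cannot give a p under 0.1. Each difference between groups was smaller than the wider of the SDs of its groups.

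RefSeq's promoter table (build GRCm38.p6, not the build of the counts) had entries for 5 of the 9 genes, C1qb, C1qc, C3, C3ar1 and C5ar1. The 250 bases before the transcript start are shown for C1qb and C1qc, as neighbours that moved together, and for C3 below. They were searched on both strands for short forms of sites of factors known to act on immune genes: GGGA and CC with any 4 bases between them for NF-kB, TTGCNNAA for C/EBP, GAGGAA for the core read by PU.1, GAAA repeated after any 2 bases for interferon factors and TTCNNNGAA for STAT proteins. Capitals mark the matches, and the forms were chosen after the values of the genes were seen.
C1qb, chr4:136886201-136886450, minus strand: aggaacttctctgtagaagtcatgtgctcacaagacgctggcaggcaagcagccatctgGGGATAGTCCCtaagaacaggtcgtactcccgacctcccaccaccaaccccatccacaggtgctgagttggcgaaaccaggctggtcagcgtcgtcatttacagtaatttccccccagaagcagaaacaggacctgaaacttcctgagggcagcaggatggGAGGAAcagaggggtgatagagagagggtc
C1qc, chr4:136892915-136893164, minus strand: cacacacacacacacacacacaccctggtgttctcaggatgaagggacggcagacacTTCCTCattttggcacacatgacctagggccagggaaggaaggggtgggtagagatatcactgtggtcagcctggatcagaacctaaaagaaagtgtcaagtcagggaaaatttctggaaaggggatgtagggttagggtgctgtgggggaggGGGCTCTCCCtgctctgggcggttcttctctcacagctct
C1qb held 2 overlapping NF-kB matches on opposite strands, beginning 191 and 190 bases upstream, and a PU.1 core at 30 bases. C1qc held an NF-kB match at 40 bases and a PU.1 core at 193 bases, both on the opposite strand to the one printed. Among 32851 promoter windows of this length, 17.6% held the NF-kB form, 23.3% the PU.1 core, 9.56% the C/EBP form, 2.98% the interferon form and 7.02% the STAT form. The windows of C3ar1 and C5ar1 held none of the 5 forms. A match describes letters and not a bound site.

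C4b encodes the complement protein C4 of the mouse, which C1q-bound proteases cleave. It had the largest fold change of the 9 genes, with a wide spread. C4b (chr17:34865325-34880827) had 144, 62.7 and 87.2 normalized counts in Control replicates 1 to 3 and 889, 140 and 278 in the knockout replicates. Knockout replicate 1 was far above the other knockout libraries, and knockout replicate 2 lay just below Control replicate 1, so the groups overlapped. The fold change was 4.45 (log2 2.16 ± 0.61 SE, 95% interval 0.96 to 3.35, DESeq2 adjusted p 0.00539). The call was lost with edgeR (adjusted p 0.106) and with limma-voom (adjusted p 0.175). It was also lost in DESeq2 fits without knockout replicate 1 (log2 1.097, adjusted p 0.0886) or without Control replicate 2 (log2 1.91, adjusted p 0.0536), and without Control replicate 3 it was 2.07 (adjusted p 0.0269). Cd74, the invariant chain of class II antigen presentation, was high in knockout replicate 1 as well, and was picked after its values were seen. It had 1695 normalized counts there and 542 to 817 in the other 5 libraries, and did not pass as changed between the groups (DESeq2 adjusted p 0.218).

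C4b has a near copy, C4a, on the same chromosome, and reads that fit both genes equally well were not counted. The coding sequence of C4b was 96.1% identical to C4a over 5207 aligned bases, and 16.4% of its 5118 windows of 100 bases, the read length, were found whole in C4a. The stretch of 90 coding bases below was chosen for having the most differences of any gap-free stretch, 14, shown in capitals. It shows where a read can be assigned to 1 of the copies.
C4b, chr17:34872375-34872464, mm9, minus strand: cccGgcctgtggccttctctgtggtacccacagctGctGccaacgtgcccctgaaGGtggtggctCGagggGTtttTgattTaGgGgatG
C4a, chr17:34953031-34953120, mm9, minus strand: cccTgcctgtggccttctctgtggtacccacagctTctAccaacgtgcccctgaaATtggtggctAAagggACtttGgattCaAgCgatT
C4a was low in both groups, with 84.1, 27.3 and 29.1 normalized counts in Control and 39.8, 19.2 and 23.7 in knockout libraries (log2 fold change -0.77 ± 0.60 SE, DESeq2 adjusted p 0.429). Per base, the log2 ratio of C4b to C4a was 1.01, 1.44 and 1.82 in Control and 4.72, 3.10 and 3.79 in knockout libraries. The length used was 5379 bases of coding transcript for C4b and 6343 bases of merged exons for C4a. This choice moved the ratio equally in every library. This ratio was higher in every knockout library than in every Control library, also where C4b itself overlapped. It was chosen after the values were seen and is given without a test.

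C3 encodes the protein on which all pathways of complement converge, and its transcript rose by 3.75-fold. C3 (chr17:57343397-57367559) had 646, 409 and 899 normalized counts in Control replicates 1 to 3 and 2876, 2836 and 1610 in the knockout replicates. The lowest knockout library, replicate 3, lay above the highest Control library, replicate 3. The log2 fold change was 1.91 ± 0.35 SE (95% interval 1.23 to 2.59, DESeq2 adjusted p 1.98e-06, edgeR adjusted p 0.0236). C3 passed in all 6 leave-one-out fits of DESeq2, with log2 fold changes from 1.65 to 2.21, and in 3 of 6 of edgeR. Its promoter is shown because it held the most matches, 4.
C3, chr17:57228137-57228386 in GRCm38.p6, minus strand: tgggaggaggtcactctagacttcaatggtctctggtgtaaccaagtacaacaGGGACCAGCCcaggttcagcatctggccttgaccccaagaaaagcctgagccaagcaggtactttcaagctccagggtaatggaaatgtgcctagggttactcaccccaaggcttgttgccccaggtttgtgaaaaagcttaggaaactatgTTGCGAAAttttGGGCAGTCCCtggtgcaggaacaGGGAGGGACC
The NF-kB form began at 197, 33 and 10 bases upstream, and the C/EBP form at 45 bases. No interferon, STAT or PU.1 form was found in this window.

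Cfb encodes factor B, the protease of the alternative pathway, and moved the other way. Cfb (chr17:34993319-34999463) had 3066, 3404 and 2308 normalized counts in Control replicates 1 to 3 and 2144, 1652 and 908 in the knockout replicates. Each knockout library lay below each Control library, with a gap of 2308 against 2144 at its narrowest. The log2 fold change was -0.90 ± 0.33 SE (95% interval -1.55 to -0.25), with a DESeq2 adjusted p of 0.0443. The call was close to the threshold. It was lost with edgeR (adjusted p 0.120), with limma-voom (adjusted p 0.111) and in 4 of 6 leave-one-out fits, those without Control replicate 1, Control replicate 2, knockout replicate 2 or knockout replicate 3. The log2 fold change in these 6 fits ran from -1.19 to -0.62, and was -1.05 without Control replicate 3 (adjusted p 0.0268). An annotated gene, Gm20547, overlaps Cfb on the same strand and was not analysed here. Cfb lies within 170.1 kb of C4b, C4a and C2 on chromosome 17. C2, its counterpart in the classical pathway, had 1163, 1053 and 928 normalized counts in Control and 850, 852 and 692 in knockout libraries (log2 fold change -0.39 ± 0.18 SE, DESeq2 adjusted p 0.138).

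Because C3 rose and Cfb fell, their balance changed more than either gene. Per base of transcript, C3 was below Cfb in all 6 libraries, by a log2 ratio of -3.15, -3.96 and -2.26 in Control and of -0.48, -0.12 and -0.07 in knockout libraries. In knockout libraries the levels of both transcripts thus lay much closer together. The mean log2 ratio differed by 2.90 between groups, a 7.45-fold shift, and by 3.33 without Control replicate 3. The ratio was chosen after the values were seen and is given without a test.

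**Figure D2:**
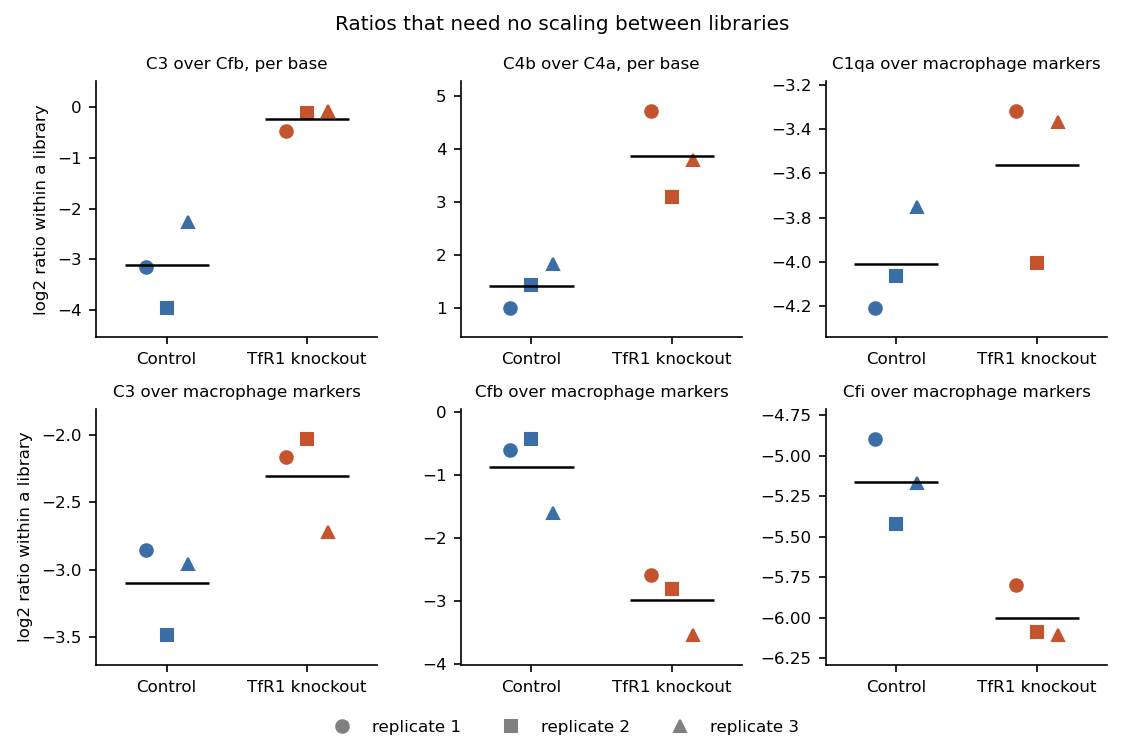
Log2 ratios of gene pairs, and of genes to the summed macrophage markers, within each library, which do not depend on the size factors. Points are the 3 Control and 3 knockout libraries and bars their means, on linear axes of log2 values that differ between panels. C3 over Cfb, C4b over C4a and C3 over the markers are higher in every knockout library, Cfb and Cfi over the markers are lower in every one, and C1qa over the markers overlaps between groups.

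Factor I and the anaphylatoxin receptors did not pass the test. Cfi (chr3:129539655-129578246, plus strand), the inactivator of C3b and C4b proteins, had 157, 107 and 195 normalized counts in Control and 232, 170 and 154 in knockout libraries. The groups overlapped, and the log2 fold change was 0.28 ± 0.32 SE (95% interval -0.34 to 0.90, DESeq2 adjusted p 0.610), an interval that holds 0. C3ar1 (chr6:122797156-122806179), the receptor of C3a, had 37.9, 33.6 and 139 in Control and 152, 65.2 and 194 in knockout libraries. Control replicate 3 lay among the knockout libraries, and the log2 fold change was 0.97 ± 0.62 SE (95% interval -0.24 to 2.18, DESeq2 adjusted p 0.308). C5ar1 (chr7:16832092-16844889), the receptor of C5a, had 34.6, 40.0 and 88.3 in Control and 93.5, 99.8 and 124 in knockout libraries. Its groups did not overlap, by a narrow margin, and the log2 fold change was 0.97 ± 0.43 SE (unadjusted 95% interval 0.13 to 1.81, DESeq2 adjusted p 0.112). Control replicate 3 was the highest Control library for both receptors, and both passed with DESeq2 when it was left out. C3ar1 was then at log2 1.94 (DESeq2 adjusted p 0.00343) and C5ar1 at log2 1.503 (DESeq2 adjusted p 0.000818). With edgeR and without that library, C5ar1 passed (adjusted p 0.0462) and C3ar1 did not (adjusted p 0.0893). Raw counts were 37 to 205 for C3ar1 and 42 to 131 for C5ar1. The transcript of C5 itself, Hc, was close to absent, with at most 10.9 normalized counts in any library.

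**Figure D3:**
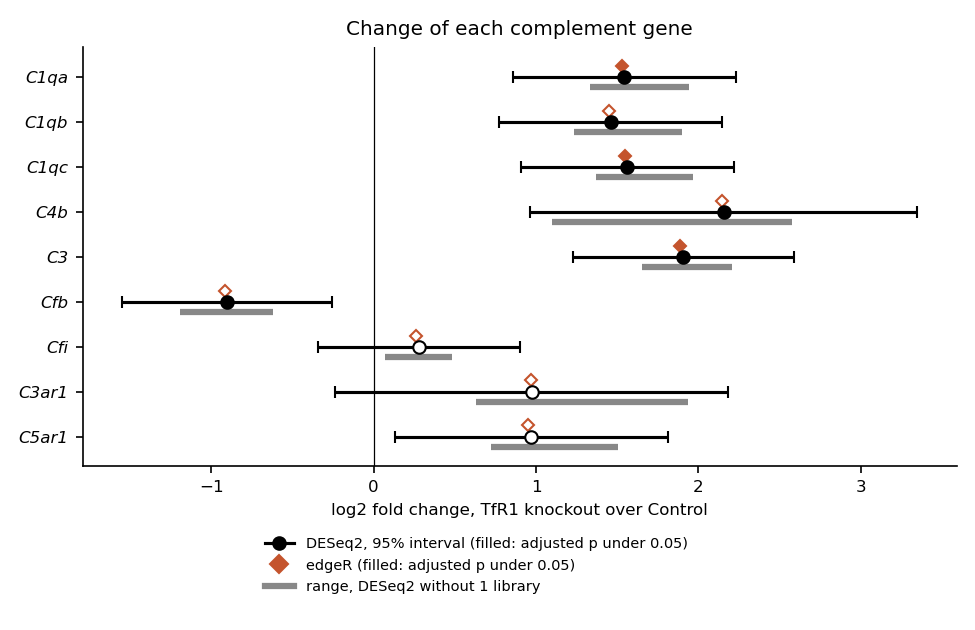
Log2 fold changes of the 9 complement genes, TfR1 knockout over Control, with 95% intervals from DESeq2 that are not adjusted for multiple testing; diamonds are the edgeR values, grey bars the range of DESeq2 fits without 1 library, and filled symbols an adjusted p under 0.05. The intervals of C1qa, C1qb, C1qc, C4b and C3 lie above 0 and that of Cfb below it; C5ar1 has an interval above 0 but an adjusted p of 0.112.

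Levels of different genes were compared as counts scaled to the library total and to the length of the longest coding transcript in kilobases (RPKM), as a description. In Control kidneys Cfb led with 56.7 ± 8.81 RPKM (mean ± SD, n = 3), above every library of the other 8 genes. C1qb (18.8 ± 9.38 RPKM), C1qa (18.2 ± 8.48 RPKM) and C1qc (14.1 ± 6.67 RPKM) followed, with overlapping ranges. Within each library C1qc was below both other chains. C3 (6.87 ± 2.84 RPKM) and Cfi (3.98 ± 1.29 RPKM) overlapped in range, with C3 above Cfi within each Control library. C5ar1 (1.16 ± 0.68 RPKM), C4b (0.98 ± 0.41 RPKM) and C3ar1 (0.89 ± 0.79 RPKM) were lowest and overlapped. In knockout kidneys the order was C1qa (49.3 ± 16.98 RPKM), C1qb (47.9 ± 14.9 RPKM), C1qc (38.6 ± 10.9 RPKM), Cfb (28.2 ± 11.6 RPKM) and C3 (23.5 ± 6.35 RPKM), each overlapping its neighbour. Cfi (4.46 ± 1.16 RPKM), C4b (4.16 ± 3.91 RPKM), C5ar1 (2.08 ± 0.44 RPKM) and C3ar1 (1.63 ± 0.87 RPKM) lay below all libraries of C3, and overlapped in part. Factor B was thus the most abundant of the 9 transcripts in Control kidneys, while the C1q chains had the highest mean levels in knockout kidneys.

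The other 47 complement genes in the count table were read by role. Of 37 with an adjusted p, 4 rose, 1 fell and 32 did not pass (DESeq2, adjusted p under 0.05), with a median log2 fold change of 0.11, beside 0.01 over all genes tested. The 4 that rose also passed with edgeR. Cfp, properdin, which stabilizes the alternative pathway enzyme, had 234, 228 and 304 normalized counts in Control and 438, 838 and 663 in knockout libraries (log2 fold change 1.34 ± 0.29 SE, DESeq2 adjusted p 0.000124). Clu, clusterin, an inhibitor of the membrane attack complex that injured tubules are known to make, had 4226, 4488 and 2409 in Control and 19221, 9326 and 8348 in knockout libraries (log2 1.73 ± 0.38, DESeq2 adjusted p 0.000121). Itgam and Itgb2 encode the subunits of complement receptor 3, by which myeloid cells bind inactivated C3b. Itgam had 55.2, 36.4 and 115 in Control and 406, 279 and 430 in knockout libraries (log2 2.44 ± 0.43, DESeq2 adjusted p 5.77e-07). Itgb2 had 55.2, 57.3 and 86.1 in Control and 306, 155 and 163 in knockout libraries (log2 1.66 ± 0.38, DESeq2 adjusted p 0.000291). In edgeR fits without 1 library, Itgam passed in 3 of 6, Cfp in 2, Clu in 1 and Itgb2 in 0. Among the 37 genes tested, 7 were higher and 6 lower in every knockout library than in every Control library, where 16.9% of all genes tested did so in each direction.

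Colec11, a collectin that starts the lectin pathway, was the gene that fell, from 51.1, 46.4 and 96.9 normalized counts in Control to 22.9, 15.3 and 19.9 in knockout libraries (log2 fold change -1.73 ± 0.48 SE, DESeq2 adjusted p 0.00406). It missed the threshold with edgeR (adjusted p 0.0521) and in DESeq2 without Control replicate 3 (adjusted p 0.0624). Counted with the 9 genes, classical and lectin components had 4 higher and 1 lower of 12 tested, and C3 with the alternative pathway had 2 higher and 1 lower of 4. The 4 higher classical and lectin genes were C1qa, C1qb, C1qc and C4b, so none outside the 9 genes passed as higher there. Regulators had 1 higher and 0 lower of 16 tested, receptors 2 higher and 0 lower of 10, and terminal components 0 of 4 in either direction. Over all genes tested, 7.74% passed as higher and 7.18% as lower. Membrane regulators that protect cells were among those that did not pass, and 4 are given, picked after their values were seen. Cr1l, the mouse regulator Crry, had a log2 fold change of 0.02 ± 0.15 SE, and Cd59a had -0.03 ± 0.22 on the same scale. Cd55 (log2 fold change -0.17 ± 0.18) and Cd59b (-1.63 ± 0.81, DESeq2 adjusted p 0.169) lay below Control in every knockout library, Cd59b at 1 to 39 raw counts. No symbol matched C1s in the table, and 7 of the 47 genes had 3 counts or fewer in every library.

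**Figure D4:**
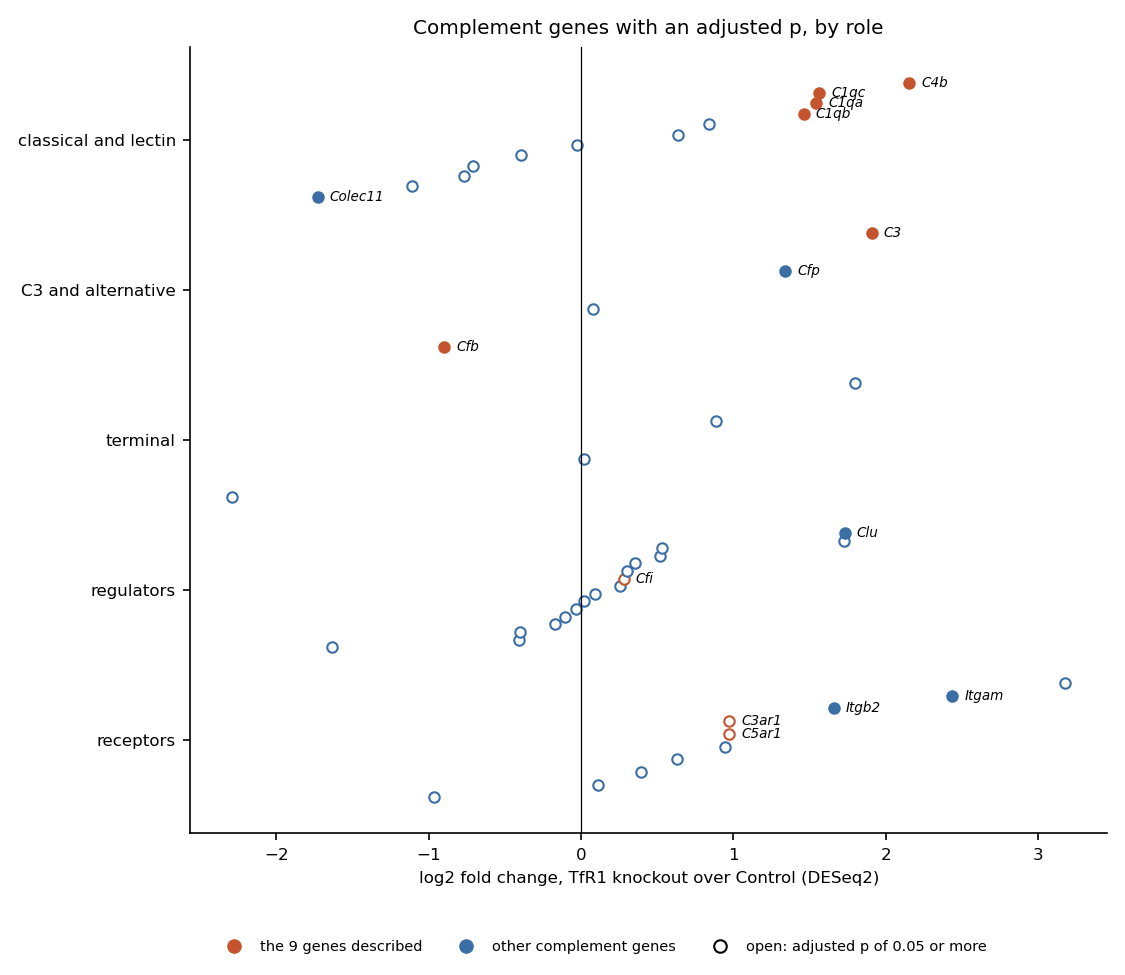
Log2 fold changes (TfR1 knockout over Control, DESeq2) of the 46 complement genes with an adjusted p, in rows by role; the height within a row only spreads the points. Filled points passed an adjusted p of 0.05 and open points did not: 9 genes passed as higher and 2, Cfb and Colec11, as lower.

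Markers of macrophages moved with the C1q genes in part. Of 20 macrophage markers, 10 rose and 0 fell with DESeq2 and 5 rose with edgeR, with a median log2 fold change of 1.08. Over all genes tested, 7.74% passed as higher with DESeq2 and 3.22% with edgeR, and the median was 0.01. Among the markers that rose were Lyz2 (log2 fold change 1.81), Ctss (2.57), Cd14 (3.09) and Laptm5 (1.09). The summed markers had 4586 to 6998 normalized counts in Control and 10633 to 12895 in knockout libraries, and no marker was at 0 in any library. Csf1r, the receptor that macrophages depend on, had 983 to 1153 normalized counts in Control and 1140 to 1581 in knockout libraries. It did not pass (DESeq2 adjusted p 0.199). Adgre1, Mrc1, Cx3cr1 and Aif1 also did not pass (DESeq2 adjusted p 0.146, 0.552, 0.395 and 0.979). Aif1 had 39.6, 47.3 and 58.1 normalized counts in Control and 119, 7.68 and 22.7 in knockout libraries. Cx3cr1 had 83.3, 81.8 and 208 in Control and 386, 32.0 and 312 in knockout libraries. Relative to the summed markers of the same library, the C1q chains differed by log2 0.44 (C1qa), 0.38 (C1qb) and 0.48 (C1qc), with overlapping groups (two-sided exact permutation p 0.2 for each). Against the mean of the markers' log2 values in place of their sum, the groups did not overlap for the chains (exact permutation p 0.1 for each). C3ar1 and C5ar1 differed by 0.01 and -0.06 (exact permutation p 1 and 0.7), less than their spread within groups. C4b differed by 0.68, again with overlap (exact permutation p 0.7). C3 rose by 0.79 more on the log2 scale than the markers, while Cfb and Cfi lay lower relative to them by log2 differences of -2.10 and -0.84. For these 3 genes the groups did not overlap, and the exact permutation p of 0.1 is the smallest possible. With the mean of log2 values this separation was lost for C3 (exact permutation p 0.2), and kept for Cfb and Cfi. With 9 such ratios tested, no adjusted p could be under 0.1. The part of macrophage RNA in the rise of the C1q genes and C3 was not tested.

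Other marker lists also differed between the groups. Hepatocyte markers, whose cells make much of plasma C3, C4, factor B and factor I, had 5 of 9 higher with DESeq2 and 2 with edgeR. Among them Alb had 28.0, 15.4 and 13.99 normalized counts in Control and 433, 371 and 67.2 in knockout libraries, and Fga had 218, 311 and 209 against 492, 1963 and 568. Other hepatocyte markers, such as Apoa2, Serpina1a and Apob, did not pass, with log2 fold changes of -0.78, -0.95 and -0.49. The list summed to 5011 to 6023 normalized counts in Control and 5336 to 18810 in knockout libraries, mostly from Ttr. Neutrophil markers had 3 of 8 higher with DESeq2 (S100a8, S100a9 and Retnlg) and 0 with edgeR, and summed to 131 to 498 in Control and 362 to 1098 in knockout libraries. Elane and Ly6g had at most 5.97 normalized counts in any library, and Ly6g was higher in every knockout library. Csf3r was also higher in every knockout library and did not pass (DESeq2 adjusted p 0.05455). None of the 8 was lower in every knockout library. Of 10 T and B cell markers 0 rose and 1 fell, Ms4a1 (DESeq2 adjusted p 0.0453). Kidney tubule and glomerulus markers had 1 higher (Aqp2) and 5 lower of 10, and their sum was 97992 to 203927 in Control and 77774 to 112689 in knockout libraries. The part of any of these in the values of C3, C4b, Cfb and Cfi was not tested.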

How the data were processed

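Poly-A RNA of 6 kidneys was sequenced as single-end reads of 100 bases. Per the labels and methods, the authors used CASAVA 1.8.2, trimmed with Trimmomatic, aligned to mm9 with TopHat2 2.0.11, discarded reads without a unique alignment and deposited HTSeq's raw counts of the remainder, not normalized. Strand setting and gene models of the counting are not given in the sources used here, and genes with near copies lose reads to the unique filter. Groups and replicate numbers came from the labels, and the study gives 3 mice per model.

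The main test, as in the study, was DESeq2 1.42.0 in R 4.3.3 (Wald test, Benjamini-Hochberg over 16509 genes, no covariate, independent filtering at 0.05, unshrunken fold changes). Changes were called at an adjusted p under 0.05, and 2-fold is named where met. Alternatives were edgeR 4.0.16, limma 3.58.1 with voom, other size factors and filters, outlier filtering off, a null of at most 2-fold, a replicate block, and leaving out each library. The edgeR leave-one-out fits, the 2 gene-pair ratios and the coding-transcript lengths of the 9 genes were added after seeing the data. The lengths took the place of merged exons, since those of C1qc were longer than its transcript. The members and lists were chosen with earlier results of these data known. Named were the 9 genes, listed complement genes past the threshold, at most 4 examples per marker list by mean count, and Tfrc. Other genes named were chosen after their values were seen. Positions and lengths came from GENCODE on mm9, matched by symbol for 20608 genes.

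The code was tested on simulated data with 200 changed genes: DESeq2 recovered 182 with 32 unchanged genes among 214 calls, and edgeR 157 with 12 among 169. Some genes of the lists are not reported here.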

Additional observations from a re-analysis of the deposited data

How the results depend on the processing

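With 3 libraries per group, the DESeq2 calls of C4b and Cfb depended on single libraries, and those of C4b, Cfb and C1qb were lost with edgeR. In edgeR fits without 1 library, C1qa, C1qb, C1qc and C3 passed in 1, 1, 1 and 3 of 6, so these calls also depended on single libraries. The fold changes of all 9 genes kept their direction under every alternative run. The count of higher genes among the 9 was 5, 3 with edgeR and 0 against a null of at most 2-fold. Over DESeq2 and edgeR fits without 1 library it ran from 0 to 7, with 0 in the edgeR fits without Control replicate 1, Control replicate 2 or knockout replicate 2. The count of lower genes was 1, and 0 with edgeR, limma-voom, no independent filtering or the 2-fold null, and 0 to 1 without 1 library. Among the other complement genes, 4 were higher, with 0 against the 2-fold null and 0 to 7 without 1 library (4 to 7 with DESeq2, and 0 with edgeR without Control replicate 1, Control replicate 2 or knockout replicate 3). The lower ones numbered 1, with 0 under edgeR, limma-voom and the 2-fold null, 2 under total-count scaling and 0 to 3 without 1 library, the 3 without knockout replicate 1. Higher macrophage markers numbered 10, with 5 under edgeR and limma-voom, 2 under the 2-fold null and 0 to 13 without 1 library (6 to 13 with DESeq2, and 0 with edgeR, the lowest in both without Control replicate 1 or Control replicate 2). Over all genes at 2-fold, 728 were higher (380 with edgeR, 365 with limma-voom, 122 under the null) and 736 lower (353, 372 and 86, and 498 to 1146 without 1 library, the 1146 without knockout replicate 1). With edgeR and without Control replicates 1, 2 and 3 and knockout replicates 1, 2 and 3 in turn, 104, 106, 307, 498, 265 and 158 genes were higher and 77, 79, 343, 591, 192 and 74 lower. Total-count scaling moved the median of all genes by -0.10 on the log2 scale. The causes were not tested.

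Signs turned only for values near 0. Relative to macrophage markers, the C3ar1 difference was -0.028 with the mean of log2 marker values and -0.38 to 0.47 without 1 library, and that of C5ar1 was -0.24 to 0.16. The C1qa to C1qb difference ran from -0.031 to 0.149 and the C1qa to C1qc difference from -0.088 to 0.020. Tfrc ran from -0.095 to 0.303, turning to -0.095 and -0.072 without Control replicate 3 or knockout replicate 1, and to -0.103 and -0.092 with edgeR.

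Same-numbered samples did not deviate together (correlations -0.04, 0.05 and 0.09), and the numbers were therefore read as names. With the replicate number as a block, 5 of the 9 genes were higher and 1 lower, 4 other complement genes were higher and 2 lower, 12 macrophage markers were higher, and 658 genes were higher and 750 lower at 2-fold.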

Other observations

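Cytokines and transcription factors that are known to act on complement genes were read from a list of 18. Of the 17 with an adjusted p, 8 rose and 0 fell in TfR1 knockout kidneys with DESeq2, and 5 rose with edgeR. Their median log2 fold change was 0.79, beside 0.01 over all genes tested. Over all genes, 7.74% passed as higher and 7.18% as lower with DESeq2, and 3.22% as higher with edgeR. An effect of the listed genes on complement transcripts in these kidneys was not tested. Stat3, which carries signals of the interleukin 6 family, had 2079, 2271 and 2118 normalized counts in Control and 4798, 5281 and 4646 in knockout libraries (log2 fold change 1.19 ± 0.14 SE, DESeq2 adjusted p 1.28e-15). The 3 libraries of each group lay close together, and the groups were far apart. Cebpd, a factor of the acute phase response, had 365, 315 and 372 in Control and 997, 1741 and 792 in knockout libraries (log2 1.74 ± 0.32, DESeq2 adjusted p 1.71e-06). Its relative Cebpb had 316, 265 and 204 in Control and 857, 782 and 412 in knockout libraries (log2 1.38 ± 0.33, DESeq2 adjusted p 0.000586). Nfkb2, a subunit of NF-kB, rose less, with a log2 fold change of 0.74 ± 0.21 SE (DESeq2 adjusted p 0.00562, edgeR adjusted p 0.0576). Among the cytokines, named after their values were seen, Il1b (log2 2.68, DESeq2 adjusted p 0.000181) and the interleukin 6 family members Lif (log2 2.97, DESeq2 adjusted p 0.000633) and Osm (log2 5.57, DESeq2 adjusted p 0.00108) rose, each higher in every knockout library. With edgeR, Il1b passed (adjusted p 0.0380) and Lif did not (adjusted p 0.0682). Osm was not tested by edgeR, with raw counts of 1, 1 and 0 in Control and 57, 19 and 6 in knockout libraries. Il6 itself was nearly absent in 5 of 6 libraries, with 26.9 normalized counts in knockout replicate 1 and at most 3.78 elsewhere, and Ifng was listed at 0 in every library.

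The genes most like C3, C1qa and Cfi across the 6 libraries were sought among the 12106 genes averaging 100 or more normalized counts, by Pearson r of log2(normalized count + 1). The libraries fall into 2 groups and share their size factors, so r mixes the difference between groups with the spread inside them. For C3 the leading genes were Inhbb (r 0.994), Trim56 (r 0.991) and Mast4 (r 0.990). For C1qa they were Cybb (r 0.996), which encodes the oxidase subunit of phagocytes, Tubb2b (r 0.991) and Arhgef2 (r 0.989). For Cfi they were Setdb2 (r 0.975), Mtpap (r 0.969) and Gltscr1 (r 0.954).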
